A study of Mus musculus with 8 samples.

Results

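A set of 10 genes for secreted matrix proteins was followed in uterine stromal cells of mice: Fn1, Tnc, Postn, Thbs1, Thbs2, Sparc, Spp1, Fbln1, Eln and Fbn1. They were taken by symbol from the 23420 genes of the count tables, and all 10 passed the filter on low counts together with 14598 genes in all. RNA was measured in 8 libraries, 4 from cells of the genotype Erbb3f/f and 4 of the genotype Erbb3d/d, each labelled day 3. By mouse convention f stands for a floxed allele, one that Cre recombinase can delete, and d for its deleted form. The labels do not name the Cre line or the cells that express it, give no start for day 3, and do not state whether replicates came from separate animals, so p-values measure the spread between these libraries, which may be technical.

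Fibronectin is laid down by cells as fibrils on which other matrix proteins assemble. Tenascin, periostin, the thrombospondins, SPARC and osteopontin are matricellular proteins, which act on cell adhesion and matrix turnover more than they bear load. Elastic fibres form on microfibrils of fibrillin, onto which elastin is deposited and crosslinked, and fibulins take part in that assembly. In the mouse uterus the stroma is the main source of interstitial matrix, and this matrix is remodelled in early pregnancy as the stroma prepares for implantation.

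Reads in genes numbered 8578575 to 12854367 per library, and the smallest count of any of the 10 genes in any library was 323 reads. Values are in CPM, the read count relative to the TMM-scaled library size, given in the order of replicates 1 to 4. Erbb3, the targeted receptor gene, had 7.40, 10.6, 8.25 and 12.3 CPM in the libraries labelled Erbb3f/f and 7.37, 14.3, 17.7 and 16.2 CPM in those labelled Erbb3d/d, so it was not lower in the latter (log2 fold change 0.53, SE 0.28; edgeR, adjusted p = 0.485) and each direction below follows the labels. A count over the whole gene cannot tell a deleted exon from the rest. Adding the mean of 14 epithelium markers to the fit as a covariate gave a log2 fold change of 0.014 (SE 0.37) for Erbb3. The mean of 12 smooth muscle markers gave 0.95 (SE 0.36). The part of either cell type in Erbb3 was not tested. All 14 stromal markers were detected, led by Col3a1 (3447 ± 409 CPM for Erbb3f/f, against 3009 ± 540 CPM for Erbb3d/d, SD, n = 4 each) and Col1a1 (2846 ± 479 and 2761 ± 570 CPM). Their summed level was 14221 to 18044 CPM in Erbb3f/f, against 12100 to 16477 CPM under Erbb3d/d. EdgeR called none of the 14, with 5 lower and none higher at an unadjusted p under 0.05, while DESeq2 called Pdgfra, a receptor gene of stromal fibroblasts, lower (adjusted p = 0.00569). Over all tested genes 4.97% were lower at that unadjusted threshold, and DESeq2 called 1.62%. Pdgfra had 916 ± 78.4 and 622 ± 95.4 CPM (SD, n = 4 each). Its groups did not overlap, as for 2.48% of all tested genes with Erbb3d/d lower. Markers of other cell types were present too, and none of the 5 other marker lists had a marker at 0 in all libraries. Summed levels of 10 endothelial markers, led by Cdh5 (196 ± 62.2 and 151 ± 83.4 CPM) and Pecam1 (52.0 ± 19.0 and 56.0 ± 11.98 CPM), were 246 to 510.4 and 255 to 537 CPM, in the same order of genotypes. The sum of 5 mesothelial markers, 293 to 434 and 277 to 389 CPM, was mostly Wt1 (272 ± 26.3 and 262 ± 9.02 CPM), which is also known from uterine stroma. Upk3b was next (39.0 ± 23.5 and 30.3 ± 20.1 CPM). Fewer cells of a type and less RNA per cell cannot be told apart in such bulk libraries.

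No matrix gene of the 10 was called between the genotypes in edgeR's quasi-likelihood test at an adjusted p under 0.05, and of all 14598 genes tested 0% were. At an unadjusted p under 0.05 there were 3 of the 10, Thbs1 and Postn higher and Fbn1 lower for the Erbb3d/d label, while the share of all tested genes was 11.6% (6.64% higher and 4.97% lower). Means were higher in Erbb3d/d for 6 genes (Postn, Thbs2, Thbs1, Spp1, Fbln1 and Eln) and lower for 4 (Tnc, Fn1, Fbn1 and Sparc), while 48.0% of all tested genes were higher. The median log2 fold change, Erbb3d/d over Erbb3f/f, was 0.22 for the 10 genes and -0.011 for all tested genes. DESeq2 also called none of the 10, although it called 258 genes in all (1.62%).

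**Figure D1:**
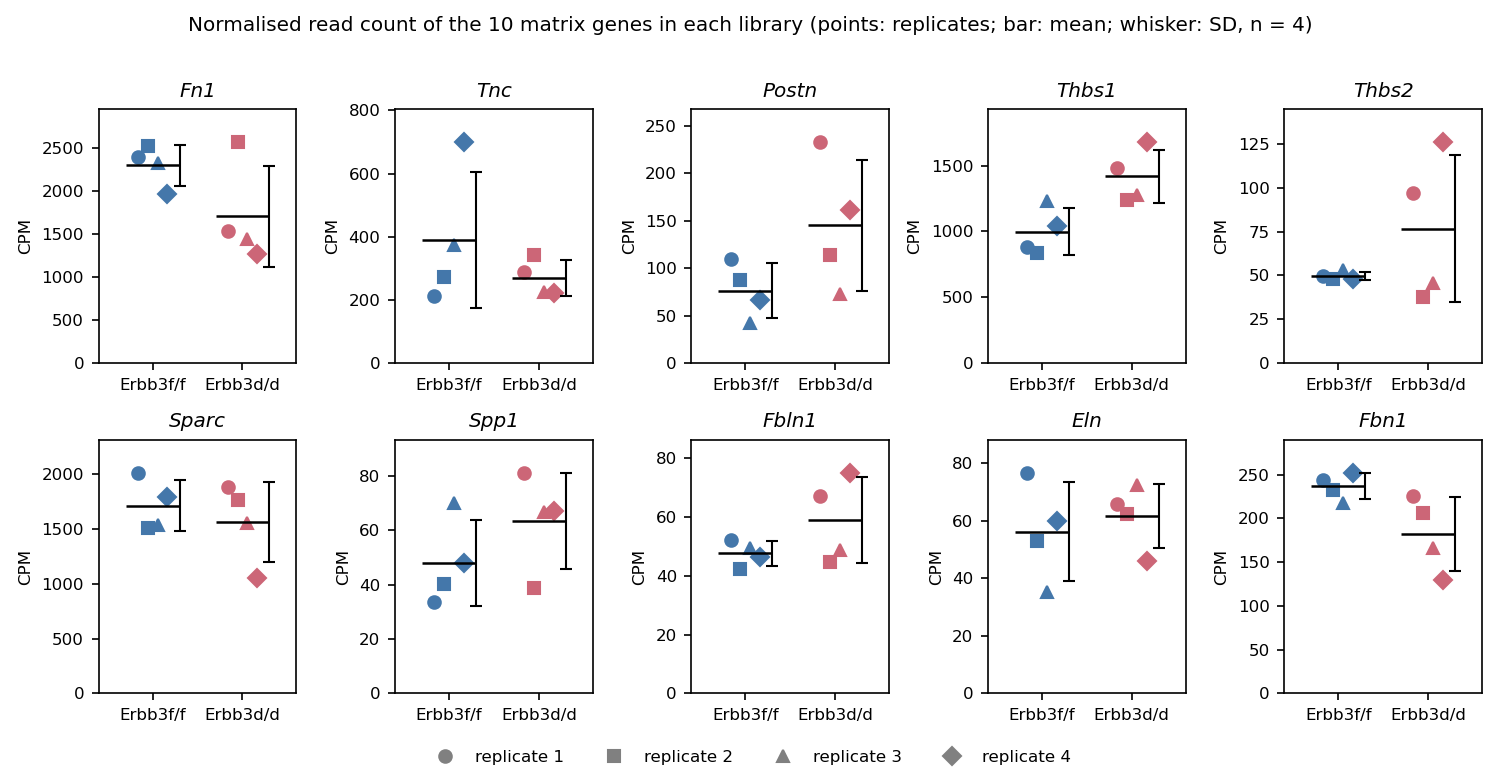
Normalised read count (CPM, vertical axis from 0) of the 10 matrix genes in 4 Erbb3f/f and 4 Erbb3d/d libraries. Points are libraries with a shape for each replicate number, bars are group means and whiskers the SD. Thbs1 is the gene whose groups do not overlap, while the Thbs2 values of Erbb3d/d replicates 1 and 4 (97.3 and 126 CPM) stand above all others.

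Levels between genes were compared per kilobase of merged exons, as CPM per kb, in the Erbb3f/f libraries. Merged exons join those of all annotated transcripts of a gene, at 3788 bases for Sparc, 8702 for Postn and 8098 for Eln. A gene read mostly from a shorter transcript is thus understated, and the order depends on these lengths. Sparc was highest at 452 ± 62.0 CPM per kb (SD, n = 4), followed by Fn1 at 197 ± 20.4 and Thbs1 at 164 ± 29.5 CPM per kb, and the ranges of Fn1 and Thbs1 overlapped. Tnc had 50.1 ± 27.8, Spp1 29.1 ± 9.59 and Fbn1 19.5 ± 1.22 CPM per kb, with overlapping ranges between neighbours. Fbln1 (10.9 ± 0.988), Postn (8.76 ± 3.30), Thbs2 (7.09 ± 0.325) and Eln (6.94 ± 2.13 CPM per kb) were the lowest, and each overlapped its neighbour, while Fbn1 lay above Fbln1 in all 4 libraries without overlap. Over all 8 libraries, Sparc ranked 31 and Thbs1 113 from the top of 13695 tested genes with a known exonic length, whereas Eln ranked 6715. In the Erbb3d/d libraries Sparc was again first, but Thbs1 (233 ± 33.5 CPM per kb) stood above Fn1 (146 ± 49.9 CPM per kb) in 3 of 4 libraries, with overlapping ranges.

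Together the 10 genes took 0.591% ± 0.0174 of the reads in genes under Erbb3f/f, against 0.554% ± 0.0742 under Erbb3d/d (SD, n = 4 each). By replicate it was 0.613%, 0.571%, 0.588% and 0.593% in Erbb3f/f, against 0.590%, 0.640%, 0.492% and 0.491% in Erbb3d/d. Erbb3d/d replicates 3 and 4 were thus below all Erbb3f/f libraries and replicate 2 was above them. Fn1 made up 39.0% ± 4.90 of the reads of the 10 genes under Erbb3f/f, against 30.3% ± 6.63 under Erbb3d/d (SD, n = 4 each).

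Fn1, which encodes fibronectin, spans bases 71585520 to 71653200 of chromosome 1, minus strand (build GRCm38 with GENCODE vM21 models, as for all positions here), with 45 merged exons. The Erbb3f/f libraries had 2399.9, 2519, 2326 and 1965 CPM, against 1540.0, 2565, 1444 and 1274 CPM under Erbb3d/d. Erbb3d/d replicates 1, 3 and 4 were below every Erbb3f/f library, and Erbb3d/d replicate 2 was above every one. Its log2 fold change was -0.43 (SE 0.21; edgeR, adjusted p = 0.452) and a two-sided exact permutation of the library labels gave p = 0.143. With 1 library left out the log2 fold change was smallest in size without Erbb3d/d replicate 4, at -0.31 (SE 0.20; edgeR, adjusted p = 0.822). Without Erbb3d/d replicate 2 it was -0.69 (SE 0.13; edgeR, adjusted p = 0.0354), and in that fit 1.75% of all genes were called (0.785% lower). No other of the 10 genes was called without that library. In the same fit 3 of the 14 stromal markers, Pdgfra, Hoxa10 and Hoxa11, were also called lower (edgeR, adjusted p = 0.0395, 0.0452 and 0.0374). With all 8 libraries 10 of the 14 were lower and 4, Dcn, Lum, Pdgfrb and Col1a2, were higher. The part of the stromal markers in the value of Fn1 was not tested. With the mean of the epithelium markers as a covariate the log2 fold change of Fn1 was -0.091 (SE 0.26). The summed level of the 14 epithelium markers was 1657, 1530.3, 1107 and 1751 CPM in Erbb3f/f, against 1746, 1819, 2626 and 2742 CPM under Erbb3d/d. It was highest in Erbb3d/d replicates 3 and 4, where Fn1 was lowest, while in Erbb3d/d replicate 1 Fn1 was low with an epithelium sum inside the Erbb3f/f range. Of these markers 12 were higher at an unadjusted p under 0.05, of which edgeR called none and DESeq2 4. Over all tested genes 6.64% were higher at that threshold, and DESeq2 called 1.62%. The most abundant epithelium markers were Msx1 (271 ± 64.3 and 394 ± 72.0 CPM, SD, n = 4 each) and Cldn3 (262 ± 42.8 and 225 ± 40.1 CPM). As 12 of the 14 epithelium markers were higher in Erbb3d/d at an unadjusted p under 0.05, the covariate fit cannot tell genotype from cell content. The part of epithelium in Fn1 was not tested.

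Among the matricellular genes, Thbs1 encodes thrombospondin 1, a binder of CD47 and CD36 that can activate latent TGF-beta. It spans bases 118111876 to 118127133 of chromosome 2, plus strand. Levels of 885, 836, 1234 and 1041 CPM in Erbb3f/f stood beside 1484, 1237, 1274 and 1676 CPM under Erbb3d/d. The groups did not overlap, but the highest Erbb3f/f library (1234 CPM) and the lowest Erbb3d/d library (1237 CPM) were almost level. Of the 10 genes it was the one whose groups were apart, while 2.56% of all tested genes did not overlap with Erbb3d/d higher and 2.48% with Erbb3d/d lower. Mean levels were 999 ± 179 CPM for Erbb3f/f, against 1418 ± 203 CPM for Erbb3d/d (SD, n = 4 each), at a ratio of 1.42. At the log2 level the fold change was 0.51 (SE 0.15), and the adjusted p from edgeR was 0.294 (0.00673 unadjusted). The adjusted p was 0.0517 with DESeq2, and the exact permutation test gave 0.0286, the smallest p that 4 against 4 libraries allow. On the log2 scale the difference was 0.60 (SE 0.23) with the smooth muscle mean and 0.59 (SE 0.23) with the epithelium mean as a covariate. With 1 library left out it ran from 0.42 (without Erbb3d/d replicate 4) to 0.62 (without Erbb3f/f replicate 3).

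Thbs2, the gene of thrombospondin 2, spans bases 14665500 to 14694235 of chromosome 17, minus strand. For Erbb3f/f its values were 49.7, 48.2, 52.9 and 47.9 CPM, and under Erbb3d/d 97.3, 37.7, 45.9 and 126 CPM. The Erbb3f/f libraries were close together, whereas Erbb3d/d replicates 1 and 4 were above and replicates 2 and 3 below all of them. Its coefficient of variation was 4.58% among the Erbb3f/f libraries but 54.9% among those of Erbb3d/d. The fold change (log2) was 0.63 (SE 0.35; edgeR, adjusted p = 0.520), and the exact permutation test gave p = 0.429. Without Erbb3d/d replicate 4 the log2 fold change was 0.29, and without Erbb3d/d replicate 2 it was 0.86.

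Postn encodes periostin, a protein of collagen-rich matrix, and spans bases 54361109 to 54391037 of chromosome 3, plus strand. Values ran 109, 87.0, 42.2 and 66.5 CPM over the Erbb3f/f replicates and 232, 114, 72.3 and 162 CPM over those of Erbb3d/d. Erbb3d/d replicates 1, 2 and 4 exceeded the highest Erbb3f/f library and replicate 3 lay inside the Erbb3f/f range. The log2 fold change of 0.93 (SE 0.38) was the largest of the 10 genes (edgeR, adjusted p = 0.410, or 0.0388 unadjusted), and the exact permutation test gave p = 0.114. Without Erbb3d/d replicate 1 the log2 fold change was 0.60, and without Erbb3f/f replicate 1 it was 1.16.

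Smooth muscle markers moved with Postn. The summed level of 12 such markers was 3019, 3036, 1829.9 and 2250.3 CPM in Erbb3f/f, against 6119, 3335, 2934 and 3782 CPM under Erbb3d/d, so it was highest in Erbb3d/d replicate 1 and next in replicate 4, as Postn was. Placed in order of either value, the 8 libraries came in the same sequence except that Erbb3f/f replicates 1 and 2, whose sums were 3019 and 3036 CPM, changed places. Of the 12 markers, 10 were higher in Erbb3d/d at an unadjusted p under 0.05, as were 6.64% of all tested genes. Of these 10, edgeR called none and DESeq2 2 (Cnn1 and Mylk), while DESeq2 called 1.62% of all genes. EdgeR called Mylk without Erbb3d/d replicate 2. The most abundant were Mylk (627 ± 61.6 and 1043 ± 286 CPM, SD, n = 4 each) and Synpo2 (626 ± 189 and 515 ± 203 CPM). With the mean of these markers as a covariate the log2 fold change of Postn was -0.21 (SE 0.18) in place of 0.93, and that of Thbs2 was -0.030 (SE 0.50) in place of 0.63. With the epithelium mean they were 0.87 (SE 0.56) and 0.42 (SE 0.54). The smooth muscle markers were themselves mostly higher in Erbb3d/d, so the covariate fit cannot tell genotype from cell content. The part of smooth muscle cells in Postn and Thbs2 was not tested.

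**Figure D2:**
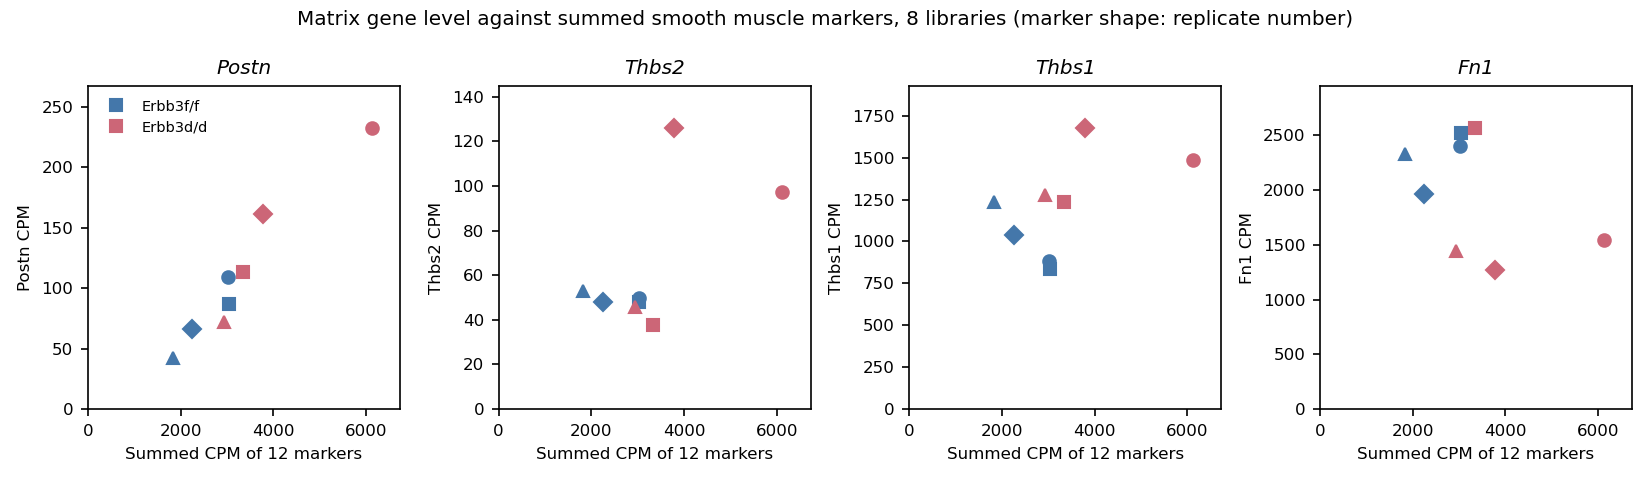
CPM of Postn, Thbs2, Thbs1 and Fn1 (vertical axes) against the summed CPM of 12 smooth muscle markers (horizontal axis) in 8 libraries, coloured by genotype with a shape for each replicate number. Postn runs from 42.2 CPM at the lowest marker sum to 232 CPM at the highest, while Thbs2 is high in Erbb3d/d replicates 1 and 4 and between 37.7 and 52.9 CPM in the other 6 libraries.

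Thbs1, Postn, Thbs2 and Fbln1, which encodes fibulin 1, were each highest in Erbb3d/d replicates 1 and 4. The bases before the starts of Postn, Thbs2 and Fbln1 are shown for that reason. Thbs1 had no entry among the promoter sequences used here. Each run holds 250 bases, 5′ to 3′ on the strand of the gene and ending at the base before the RefSeq start (GRCm38.p6), from chr3:54360857-54361106 for Postn, chr17:14694263-14694512 for Thbs2 and chr15:85205699-85205948 for Fbln1. Capitals mark matches, on either strand, to the TATA box letters TATAAA and the CCAAT box letters CCAAT. The TEAD motif GGAATG, the AP-1 motif TGACTCA with its other form TGAGTCA, and the CArG box were searched on both strands too and had no match in any of the 3 windows.
Postn: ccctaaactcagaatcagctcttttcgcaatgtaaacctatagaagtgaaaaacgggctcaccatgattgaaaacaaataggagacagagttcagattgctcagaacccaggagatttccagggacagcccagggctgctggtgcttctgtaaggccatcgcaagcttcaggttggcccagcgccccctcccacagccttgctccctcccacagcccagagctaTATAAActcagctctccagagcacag
Thbs2: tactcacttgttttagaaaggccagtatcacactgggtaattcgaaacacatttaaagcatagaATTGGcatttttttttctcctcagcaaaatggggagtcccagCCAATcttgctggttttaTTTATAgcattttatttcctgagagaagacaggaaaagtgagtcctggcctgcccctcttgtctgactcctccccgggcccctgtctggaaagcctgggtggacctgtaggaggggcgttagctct
Fbln1: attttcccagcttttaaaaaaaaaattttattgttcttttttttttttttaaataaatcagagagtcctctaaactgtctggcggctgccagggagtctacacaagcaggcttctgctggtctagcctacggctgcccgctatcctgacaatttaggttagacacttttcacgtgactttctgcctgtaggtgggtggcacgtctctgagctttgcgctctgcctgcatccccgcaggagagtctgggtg
The window of Postn held 1 match, a TATAAA that begins 26 bases before the start. That of Thbs2 held CCAAT on the minus strand at 186 bases and on the plus strand at 144 bases, and TATAAA on the minus strand at 126 bases before the start. No motif searched had a match in that of Fbln1. Among 32851 windows of the same length in the table, 12.4% held the TATA box letters, 33.8% the CCAAT box, 12.6% the TEAD motif, 4.46% a form of the AP-1 motif and 1.47% a CArG box. A match describes letters and not a site in use. The table held 7 of the 10 genes.

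Tnc encodes tenascin C, which loosens adhesion to fibronectin, and spans bases 63959785 to 64047015 of chromosome 4, minus strand. The Erbb3f/f libraries had 213, 273, 374 and 698 CPM, against 288, 342, 226 and 222 CPM under Erbb3d/d. All 4 Erbb3d/d libraries lay inside the Erbb3f/f range, which spanned 3.27-fold. Its log2 fold change was -0.53 (SE 0.34; edgeR, adjusted p = 0.577), and the exact permutation test gave p = 0.429. Without Erbb3f/f replicate 4, the highest library, it was -0.091, and without Erbb3f/f replicate 1, the lowest, it was -0.73. With the smooth muscle mean as a covariate it was -0.024 (SE 0.52), and with the epithelium mean -0.45 (SE 0.50).

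Sparc encodes a collagen-binding protein and spans bases 55394500 to 55423183 of chromosome 11, minus strand. Levels of 2012, 1513, 1538 and 1789.6 CPM in Erbb3f/f stood beside 1883, 1759.8, 1556 and 1055 CPM under Erbb3d/d. Erbb3d/d replicate 4 was below the other 7 libraries, and the rest overlapped. At the log2 level the fold change was -0.13 (SE 0.18; edgeR, adjusted p = 0.811), and without Erbb3d/d replicate 4 it was 0.021.

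Spp1 encodes osteopontin, an integrin ligand made by macrophages and by secretory epithelium among other cells, and spans bases 104435118 to 104441050 of chromosome 5, plus strand. For Erbb3f/f its values were 33.6, 40.1, 69.9 and 48.2 CPM, and under Erbb3d/d 81.2, 38.8, 66.7 and 67.1 CPM. Erbb3d/d replicates 1, 3 and 4 and Erbb3f/f replicate 3 were the highest libraries. On the log2 scale the difference was 0.40 (SE 0.26; edgeR, adjusted p = 0.581), and the exact permutation test gave p = 0.314. It was 0.65 without Erbb3f/f replicate 3 and 0.26 without Erbb3d/d replicate 1. Of the merged exons of Spp1, 18.75% overlap Gm42793 on the same strand, and Gm42793 is not among the counted genes. The summed level of 12 immune markers, led by Lyz2 (1043 ± 506 and 1128 ± 126 CPM, SD, n = 4 each) and Laptm5 (286 ± 67.1 and 317 ± 62.0 CPM), was 1686, 1322, 2962 and 1738 CPM in Erbb3f/f, against 2183, 1675, 2196 and 2217 CPM under Erbb3d/d. The 4 libraries with the highest sums were the 4 with the most Spp1, and the part of these cells in Spp1 was not tested.

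Of the elastic fibre genes, Fbn1, the gene of the microfibril protein fibrillin 1, spans bases 125300594 to 125507993 of chromosome 2, minus strand. Values ran 243, 233, 218 and 252 CPM over the Erbb3f/f replicates and 226, 206, 166 and 130.1 CPM over those of Erbb3d/d. Erbb3d/d replicates 2, 3 and 4 were below every Erbb3f/f library and replicate 1 was inside the Erbb3f/f range. The fold change (log2) was -0.38 (SE 0.15), the adjusted p from edgeR was 0.383 (0.0307 unadjusted), and the exact permutation test gave p = 0.0571. Its log2 fold change was -0.24 without Erbb3d/d replicate 4 but -0.50 without replicate 1. With a covariate it was -0.16 (SE 0.19) for the epithelium mean and -0.49 (SE 0.22) for the smooth muscle mean. Of its merged exons 20.1% overlap Gm9913 on the other strand, and the libraries were non-directional, so reads there cannot be assigned to a strand. Gm9913 is not among the counted genes.

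Fbln1 encodes fibulin 1, which binds fibronectin and elastic fibres, and spans bases 85205949 to 85286535 of chromosome 15, plus strand. The Erbb3f/f libraries had 52.3, 42.2, 49.5 and 46.6 CPM, against 67.2, 44.8, 48.9 and 75.1 CPM under Erbb3d/d. Erbb3d/d replicates 1 and 4 exceeded all other libraries, as they did for Thbs2, and the other 2 lay inside the Erbb3f/f range. Its log2 fold change was 0.31 (SE 0.16; edgeR, adjusted p = 0.497). It was 0.043 (SE 0.23) with the smooth muscle mean as a covariate and 0.22 (SE 0.24) with the epithelium mean. Without Erbb3d/d replicate 4 it was 0.18, and without replicate 2 it was 0.42.

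Eln, the gene of tropoelastin, spans bases 134702593 to 134747323 of chromosome 5, minus strand. Levels of 76.8, 52.9, 35.1 and 60.2 CPM in Erbb3f/f stood beside 66.0, 62.3, 72.6 and 46.1 CPM under Erbb3d/d. All 4 Erbb3d/d libraries lay inside the Erbb3f/f range. At the log2 level the fold change was 0.14 (SE 0.22; edgeR, adjusted p = 0.846), and the exact permutation test gave p = 0.571. Its sign turned to -0.035 without Erbb3f/f replicate 3, the library with the least Eln.

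**Figure D3:**
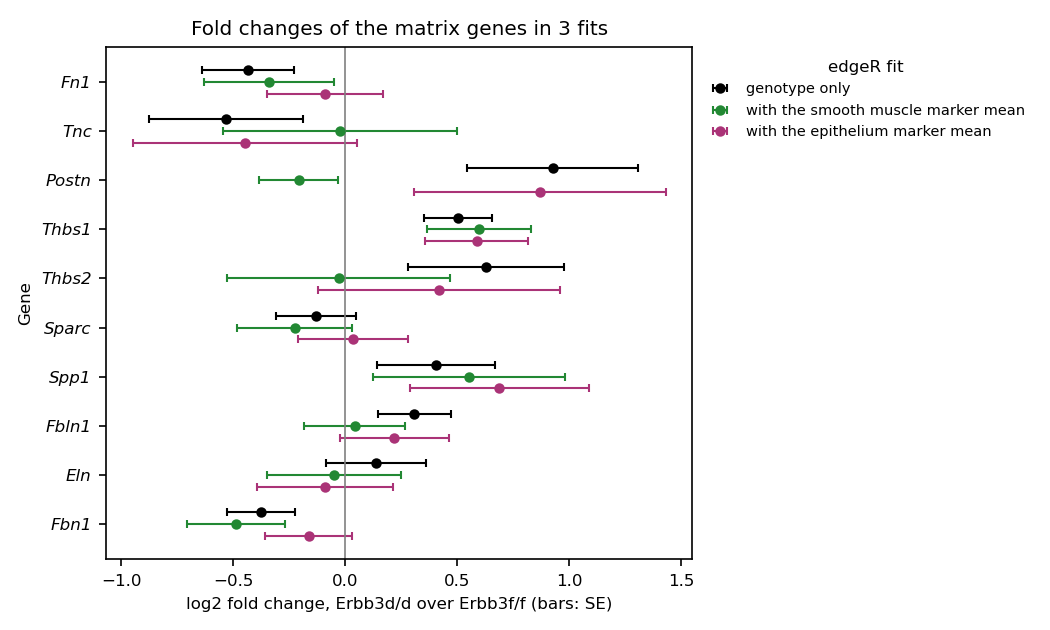
Log2 fold change of the 10 matrix genes, Erbb3d/d over Erbb3f/f (horizontal axis, bars are SE), in edgeR with genotype alone and with the mean of the smooth muscle or epithelium markers as a covariate. Postn shifts from 0.93 to -0.21 with the smooth muscle mean, Fn1 from -0.43 to -0.091 with the epithelium mean, and Thbs1 stays between 0.51 and 0.60.

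The 10 genes did not vary together. Erbb3d/d replicate 4 had the highest value of 8 libraries for Thbs1, Thbs2 and Fbln1 and the lowest for Fn1, Sparc and Fbn1. Its log2 deviation from the mean of 8 libraries was 1.11 for Thbs2 and -0.65 for Fbn1. The summed level of the stromal markers was also lowest there, at 12100 CPM. Their part in the values of Fn1, Sparc and Fbn1 was not tested. Erbb3d/d replicate 1 had the highest Postn and Spp1, and 8 of the 10 genes were above their own mean there, against 3 of 10 in Erbb3d/d replicate 3. Erbb3d/d replicate 2 had the highest Fn1 and the lowest Thbs2. The coefficient of variation was larger in Erbb3d/d than in Erbb3f/f for 6 of the 10 genes, and for 56.9% of all tested genes.

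**Figure D4:**
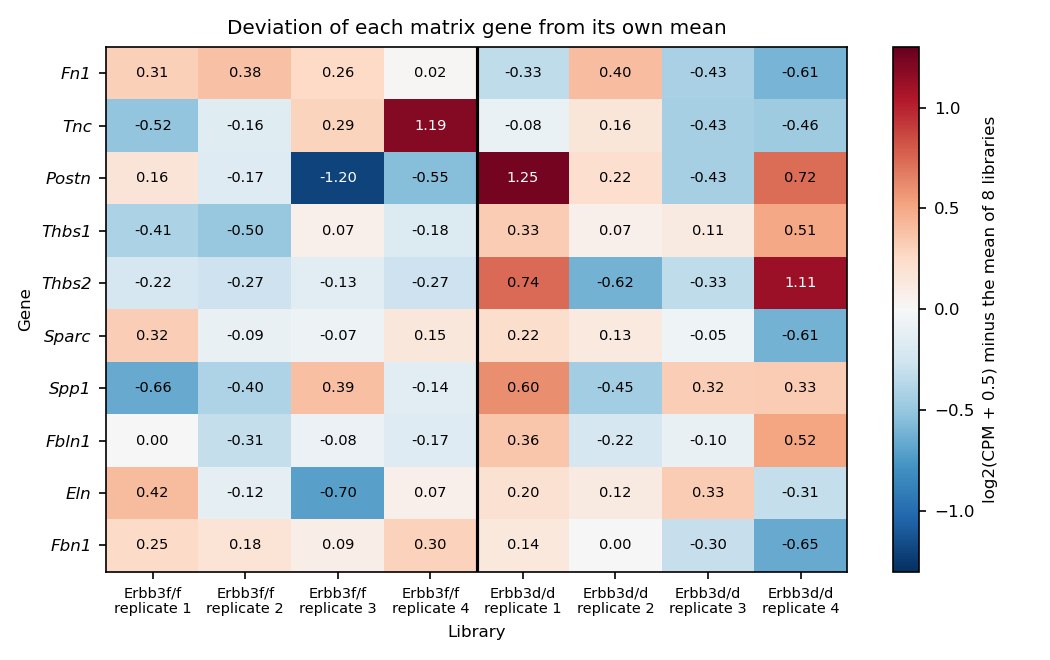
Deviation of log2(CPM + 0.5) from the mean of 8 libraries for each matrix gene (rows) in each library (columns), with the value in each cell and a vertical line between the genotypes. Tnc in Erbb3f/f replicate 4 (1.19), Postn in Erbb3d/d replicate 1 (1.25) and Thbs2 in Erbb3d/d replicate 4 (1.11) are the highest cells.

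Other genes of the matrix were read from 3 lists. Of 39 other matrix glycoproteins 32 were tested, with 22 higher and 10 lower in Erbb3d/d, a median log2 fold change of 0.18, and none called by edgeR or DESeq2. At an unadjusted p under 0.05, 3 were higher and 2 lower, beside 6.64% and 4.97% of all tested genes. Thbs3, a further thrombospondin, had 75.6 ± 19.8 CPM for Erbb3f/f, against 48.9 ± 9.93 CPM for Erbb3d/d (log2 fold change -0.63, SE 0.20). Nid1, which encodes the basement membrane protein nidogen 1, had 2255 ± 163 and 1629.5 ± 493 CPM (-0.47, SE 0.19). The 3 higher genes were Fndc1 (64.1 ± 16.1 and 115 ± 45.1 CPM), Npnt, which encodes the integrin ligand nephronectin (27.6 ± 9.85 and 45.4 ± 10.8 CPM), and Fbln7, which encodes a fibulin (4.43 ± 2.14 and 8.48 ± 3.36 CPM, SD, n = 4 each). The adjusted p of these 5 genes was between 0.314 and 0.425 in edgeR's test. Ibsp, a relative of Spp1 known from bone, had 0 reads in all libraries.

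Elastic fibre assembly was read from a list of 18 genes, of which 17 were tested, with 4 higher and 13 lower in Erbb3d/d, a median log2 fold change of -0.17, and none called by edgeR or DESeq2. At an unadjusted p under 0.05, 2 were higher and 2 lower, beside 6.64% and 4.97% of all tested genes. Fbln2, a fibulin of microfibrils, had 144 ± 11.97 CPM for Erbb3f/f, against 117 ± 7.31 CPM for Erbb3d/d (SD, n = 4 each). Its groups did not overlap, as for 2.48% of all tested genes with Erbb3d/d lower. The log2 fold change of Fbln2 was -0.30 (SE 0.09; edgeR, adjusted p = 0.293). Efemp1, which encodes fibulin 3, had 156 ± 22.7 and 110.1 ± 29.6 CPM (-0.50, SE 0.19). The enzymes Lox and Loxl4, lysyl oxidases that crosslink elastin and collagen, were the 2 of this list higher at an unadjusted p under 0.05. Lox had 89.7 ± 3.77 and 133 ± 46.6 CPM (0.57, SE 0.22) and Loxl4 had 5.51 ± 1.68 and 13.5 ± 7.96 CPM (1.304, SE 0.43). The other lysyl oxidases, Loxl1, Loxl2 and Loxl3, had log2 fold changes of -0.069, -0.28 and -0.17.

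Of 15 receptors for these proteins, all tested, 11 were higher and 4 lower in Erbb3d/d, with a median log2 fold change of 0.18 and none called by edgeR. At an unadjusted p under 0.05, 2 were higher and 2 lower, beside 6.64% and 4.97% of all tested genes. Cd44, a receptor for hyaluronan and osteopontin, had 347 ± 38.2 CPM for Erbb3f/f, against 239 ± 11.7 CPM for Erbb3d/d (SD, n = 4 each), with a log2 fold change of -0.54 (SE 0.10) and an adjusted p of 0.133. Itgb8, an integrin subunit that binds latent TGF-beta, had 26.3 ± 3.79 and 14.1 ± 3.201 CPM (-0.90, SE 0.18), with an adjusted p of 0.183. Neither gene's groups overlapped, and both were called with DESeq2 (adjusted p of 0.00061 and 0.002415) and without Erbb3d/d replicate 2 in edgeR's test (0.0355 and 0.0218). Over all tested genes 2.48% did not overlap with Erbb3d/d lower. DESeq2 called 1.62% of genes, and edgeR without that library called 1.75%. Sdc4, a fibronectin co-receptor, had 195 ± 31.2 and 280.1 ± 55.3 CPM (0.52, SE 0.16), and Itga8, the integrin subunit that binds nephronectin and fibronectin, had 38.7 ± 6.91 and 53.0 ± 6.41 CPM (0.45, SE 0.15). Itga5, whose product pairs with that of Itgb1 as the main fibronectin receptor, had 91.2 ± 13.8 and 110.4 ± 21.9 CPM, and Itgb1 had 538 ± 20.2 and 543 ± 34.9 CPM.

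**Figure D5:**
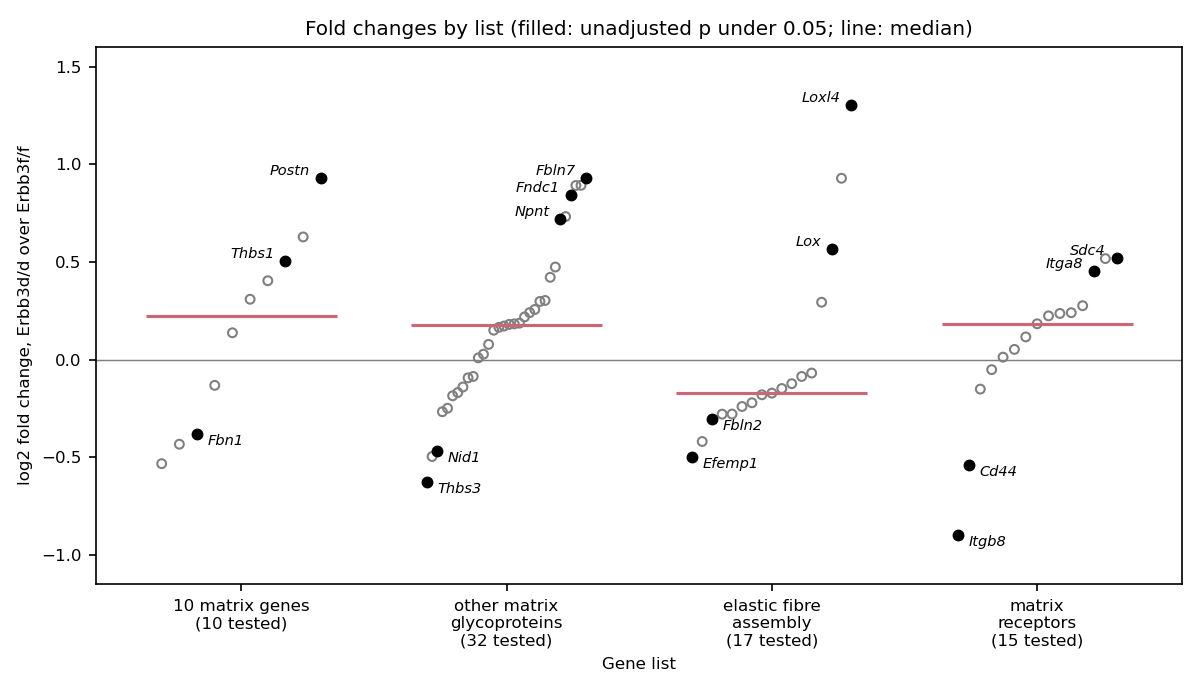
Log2 fold change, Erbb3d/d over Erbb3f/f (vertical axis), of each tested gene in 4 lists (horizontal axis). Filled points have an unadjusted p under 0.05 in edgeR's test and lines are medians, which are 0.22 for the 10 matrix genes, 0.18 for other glycoproteins, -0.17 for elastic fibre assembly and 0.18 for receptors.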

How the data were processed

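RNA of uterine stromal cells was sequenced from 4 Erbb3f/f and 4 Erbb3d/d libraries, poly(A)-selected, non-directional and read as pairs of 150 bases per the labels. The authors deposited raw read counts per gene symbol, 1 table a library, with no normalization. HISAT2, SAMtools, HTSeq and StringTie and the builds mm10 and GRCm38 are named in the submitters' processing notes, and the annotation and counting options are not given in the sources used here. The closing 5 lines of each table name no gene and stayed out of library sizes: 48.3% to 50.8% of entries lay outside genes, 12.9% to 15.7% were unaligned, and 27.0% to 29.1% were assigned to genes.

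Libraries were grouped by title. Genes passing filterByExpr (14598) were scaled by TMM and tested with edgeR 4.0.16 (robust glmQLFit and glmQLFTest, R 4.3.3), genotype alone, Benjamini-Hochberg adjustment over all tested genes, threshold 0.05. Single genes were also compared on log2(CPM + 0.5) with an exact permutation test, two-sided, of the 70 assignments. DESeq2 1.42.0, other scalings and filters, a replicate block, covariates and leaving out each library were alternatives. Scripts were tested on simulated data. No 2 libraries of a group agreed within sampling noise. The 10 genes and all lists were chosen with earlier results of these data known, and the lists were written from general knowledge. The named genes are the 10 genes, Erbb3, genes of the matrix lists with an unadjusted p under 0.05, and the 2 most abundant markers of each cell type. Pdgfra, Hoxa10, Hoxa11, Cnn1, Acta2, Actg2, Itga5, Itgb1, Ibsp, Loxl1, Loxl2, Loxl3 and the CCN genes were added after their values were seen. Positions and exonic lengths are from GENCODE vM21 (GRCm38), where 92.8% of symbols matched 1 gene, and promoter sequences are from RefSeq (GRCm38.p6).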

Additional observations from a re-analysis of the deposited data

Results flagged for a closer look

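Each of 42 sets of 4 values was checked for a library set apart by a wide gap, which chance gives in about 1 set of 20, or 2.1 sets here, and 1 set had such a library. The summed level of 12 immune markers was 1675 CPM in Erbb3d/d replicate 2, where the next lowest of its genotype had 2183 CPM. In that library Spp1 had 38.8 CPM, the lowest of its genotype, and Fn1 2565 CPM, the highest of all 8 libraries. The part of immune cells in these values was not tested.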

How the results depend on the processing

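Of the 10 matrix genes, 6 kept the direction of their log2 fold change in all 17 alternatives, and 7 of 170 values reversed. With the smooth muscle mean as a covariate Postn was -0.21, Thbs2 -0.030 and Eln -0.051, and with the epithelium mean Sparc was 0.034 and Eln -0.092. With 1 library left out Sparc ran from -0.23 (without Erbb3d/d replicate 1) to 0.021 (without replicate 4), and Eln from -0.035 (without Erbb3f/f replicate 3) to 0.33 (without replicate 1). The cause was not tested. Leaving out 1 library at a time gave 0 to 259 called genes, 0 to 1 of the 10 matrix genes (Fn1, without Erbb3d/d replicate 2) and 0 to 3 genes of the other matrix and receptor lists (Cd44, Itgb8 and Nid1, without the same library). DESeq2 called 258 genes, of which 2 were on those lists. The 10 genes took 0.618% of reads in Erbb3f/f with the 10 most abundant genes left out of the denominator, against 0.591%. Other pseudocounts moved no permutation p across 0.05, and other scalings, filters and the non-robust fit called 0 genes.

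With the replicate number as a block, edgeR called 52 genes, 39 higher and 13 lower, among them the smooth muscle markers Acta2, Actg2 and Cnn1 and none of the 10. Postn came nearest, at a log2 fold change of 0.88 (SE 0.15) and an adjusted p of 0.0595. Deviations of same-numbered libraries correlated at 0.0959 to 0.221 across genes, and those of other pairs at -0.296 to 0.302. Of 8 libraries, 5 correlated best with their own number. These values do not settle whether the numbers mark pairs. The labels state no pairing, and the main fit took none.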

Other observations

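The CCN family, matricellular proteins of which Cyr61 and Ctgf are known as targets of YAP and TEAD, was read as part of the glycoprotein list and is described after its values were seen. From Erbb3f/f to Erbb3d/d, Cyr61 had 214 ± 130 and 297 ± 106 CPM, Ctgf 29.7 ± 16.7 and 33.5 ± 13.7 CPM, Nov 6.69 ± 2.58 and 11.05 ± 6.53 CPM, and Wisp1 60.2 ± 23.2 and 60.5 ± 11.5 CPM (SD, n = 4 each). The groups of all 4 genes overlapped, and their adjusted p in edgeR's test was between 0.531 and 0.993. Wisp2 had 4 reads at most and was not tested.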
